A study of Mus musculus with 34 samples.

Results

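Normal kidney and RGLS4326-treated polycystic kidney were compared across all genes, to see which parts of the disease profile were still present after treatment and which genes had come back to the normal level. The comparison held 23 of the 34 kidneys of the study, chosen by their labels: 11 from *Pkd2*-KO mice treated with RGLS4326 and 12 from untreated non-transgenic (UNT) mice. The remaining 11 kidneys, from *Pkd2*-KO mice treated with PBS, were used to show how far each gene was from normal without the compound. All deposited PBS libraries were used, although the study's text counts fewer PBS mice for its sequencing. All mice had the C57BL6 background, and kidneys were taken at postnatal day 28 (P28). The labels give the knockout genotype as Pdk2KO, and the study describes it as Pkhd1/cre;*Pkd2* F/F, in which floxed *Pkd2* alleles are deleted by a Cre recombinase driven by the *Pkhd1* promoter in kidney tubules, so that cells outside these tubules keep the gene. RGLS4326 was injected subcutaneously at 20 mg/kg on P10, P11, P12 and P19, and PBS was given on the same days. UNT mice received no injection, so genotype and injection cannot be told apart in any comparison with UNT.

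Autosomal dominant polycystic kidney disease follows the loss of polycystin-1 or polycystin-2, the products of *Pkd1* and *Pkd2*, membrane proteins of the primary cilium. Tubules that lose them widen into cysts, and the epithelium around the cysts divides, loses its transport functions and is joined by macrophages and matrix-producing fibroblasts. The kidney otherwise depends on mitochondria, above all in the proximal tubule, which burns fatty acids to drive reabsorption. RGLS4326 is a short modified oligonucleotide complementary to the seed of miR-17, the stretch near the 5′ end with which a microRNA pairs with its target mRNAs. The seed is shared by the relatives of miR-17, which is why the mature sequences of 4 of them are shown here (RefSeq, GRCm38.p6; 5′ to 3′, bases 2 to 8 in capitals):
mmu-miR-17-5p: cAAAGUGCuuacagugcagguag
mmu-miR-20a-5p: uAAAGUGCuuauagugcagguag
mmu-miR-93-5p: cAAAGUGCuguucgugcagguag
mmu-miR-106b-5p: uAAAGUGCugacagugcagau
mmu-miR-17-5p (chr14:115043684-115043706, plus strand) and mmu-miR-20a-5p (chr14:115044183-115044205, plus strand) lie in a single cluster, and mmu-miR-93-5p (chr5:138165574-138165596, minus strand) and mmu-miR-106b-5p (chr5:138165787-138165807, minus strand) in another. The 7 seed letters were identical in all 4. MicroRNAs themselves were not measured by these mRNA libraries.

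Levels are given in CPM, read counts scaled to the size and composition of the libraries, and differences as log2 fold changes from the quasi-likelihood test of edgeR with Benjamini-Hochberg adjusted p, called at an adjusted p under 0.05. Each library had between 17603122 and 54981992 reads in genes. The libraries of the groups differed in composition. Reads in no gene (unassigned reads) made up 9.84% to 11.3% of the total in UNT and 4.94% to 12.0% in RGLS4326-treated kidneys, and 4 treated libraries (replicates 5, 6, 7 and 11) were above 11%. Reads without a unique alignment (non-unique reads) made up 22.8% to 25.7% in UNT and 14.8% to 19.1% in treated kidneys, without overlap, and the 10 genes with the most reads took 13.6% to 16.8% and 5.33% to 8.57% of the counts. Library numbers start again from 1 in the table names, which divides the libraries into sets 1, 2 and 3, each with mice of every group, and results are also given within these sets. The labels do not say what the sets are. All 3 treated libraries of set 2 are among the 4 above 11%, so a value for set 2 and a value for these 4 libraries rest largely on the same mice and are not separate checks.

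The treated kidneys remained apart from the normal kidneys. On the first principal component of log2 CPM, which held 77.5% of the variance, UNT kidneys lay between -85.7 and -66.8, RGLS4326-treated kidneys between 14.1 and 47.1 and PBS-treated kidneys between 30.9 and 67.2. No treated mouse fell within the UNT range, and the treated mouse nearest to it was 1 of the 4 with the most reads in no gene, whose first component ran from 14.1 to 34.7 against 28.8 to 47.1 in the other 7. Of the 15644 genes tested, 12157 (77.7%) were called between RGLS4326-treated and UNT kidneys, 6385 of them higher (40.8% of the genes tested) and 5772 lower (36.9%). At an absolute log2 fold change above 0.5, 7972 genes (51%) were called, 4346 higher (27.8%) and 3626 lower (23.2%), and at more than 1 it was 4332 genes, 2620 higher and 1712 lower. The change exceeded 3 on the log2 scale upwards in 475 genes and downwards in 71. In 5746 genes (36.7%) the mice of the groups did not overlap. PBS-treated and UNT kidneys, which share the same 12 UNT mice, differed in 12841 genes (82.1%), and RGLS4326 and PBS differed in 5280 (33.8%), and in 10 of the genes tested (0.0639%) the treated and the PBS mice did not overlap. Within the 3 sets of library numbers, 11145, 10235 and 8743 genes were called between treated and UNT kidneys, and 12310 were called without the 4 treated libraries with over 11% of their reads in no gene. With the share of non-unique reads as a covariate the count was 7316, and since that share does not overlap between treated and UNT kidneys, it cannot be told apart from the group. Scaling by library size alone, without correction for composition, moved the median log2 fold change of all genes from 0.02 to 0.33 and the share of calls that were higher from 52.5% to 72.5%, and directions below are relative to the composition-corrected median.

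**Figure D1:**
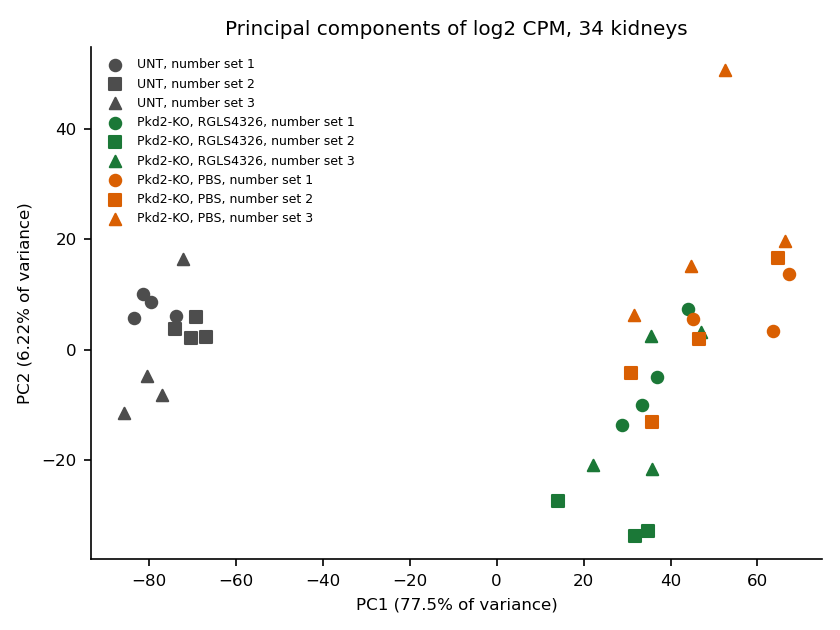
Each point is 1 of 34 kidneys on the first (x, 77.5% of variance) and second (y, 6.22%) principal component of log2 CPM, coloured by group and shaped by library number set. RGLS4326-treated kidneys sit between 14.1 and 47.1 on the first component, overlapping PBS-treated kidneys (30.9 to 67.2) and apart from UNT kidneys (-85.7 to -66.8).

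The deleted gene was examined first. *Pkd2* (chromosome 5, 104459450 to 104505819, GRCm38) was at 219.6 to 338 CPM (median 274) in UNT kidneys and 170.0 to 237 CPM (median 210.3) in RGLS4326-treated kidneys. It was below every UNT mouse in 6 treated mice and within the UNT range in the other 5, with a difference of -0.39 on the log2 scale (SE 0.09, adjusted p = 0.000267), against -0.78 in PBS-treated kidneys. With a covariate for non-unique reads this difference was not called. *Pdk2*, a pyruvate dehydrogenase kinase and the gene that the spelling of the labels names, was at 217 to 365 CPM (median 259) in UNT kidneys and 75.5 to 155 CPM (median 109.8) in RGLS4326-treated kidneys, and every treated mouse was below every UNT mouse. Its log2 fold changes were -1.20 after treatment and -1.17 after PBS. *Pkd1* was above every UNT mouse in 11 of 11 treated mice (median 115 CPM in UNT and 184 CPM in RGLS4326-treated kidneys; log2 fold change 0.70, SE 0.10, adjusted p = 1.52e-07), higher than the 0.40 seen with PBS. Its exons overlap those of *Tsc2* on the opposite strand, so the count may hold reads of both.

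The 12 genes furthest above normal after treatment included markers of tubular injury, of squamous epithelium and of matrix turnover. *Havcr1*, which encodes the injury marker KIM-1 of the proximal tubule, was at 0.182 to 0.429 CPM (median 0.302) in UNT kidneys and 65.8 to 279 CPM (median 208) in RGLS4326-treated kidneys, a 576-fold difference and a difference of 9.17 on the log2 scale (SE 0.29, adjusted p = 9.66e-25). The PBS group had a median of 187 CPM, and treated and PBS kidneys did not differ by the test (adjusted p = 0.597). *Lcn2*, the gene of lipocalin-2 (NGAL), which injured tubules secrete, was at 2.35 to 5.56 CPM (median 3.33) in UNT kidneys and 289.6 to 1062 CPM (median 600.4) in RGLS4326-treated kidneys (172-fold higher). It was lower than with PBS with a log2 fold change of -0.80 (adjusted p = 0.00500), yet the lowest treated mouse remained far above the highest UNT mouse. *Timp1*, an inhibitor of matrix metalloproteases, was at 0.113 to 0.631 CPM (median 0.435) in UNT kidneys and 20.2 to 66.5 CPM (median 51.0) in RGLS4326-treated kidneys (122-fold higher). *Wnt7a*, a Wnt ligand, had 7 reads over all 12 UNT libraries and 6393 over the 11 treated libraries, where it stood at 9.04 to 28.4 CPM. *Mmp7*, a matrix metalloprotease of injured epithelium, likewise had 9 reads in all UNT libraries and a median of 8.52 CPM in treated kidneys, and *Col10a1*, a short-chain collagen, had 11 reads and a median of 8.15 CPM. The basal keratin gene *Krt17* (median 6.94 CPM, with 12 reads in all UNT libraries) and the cornified envelope genes *Sprr2f* (6.29 CPM, with 18 reads) and *Sprr2g* (7.72 CPM) were at medians of 0.0121, 0.0254 and 0.104 CPM in UNT kidneys. *Tnfsf8*, which encodes the CD30 ligand, *Arhgap36* (15 reads in all UNT libraries) and the myosin-binding protein gene *Mybpc2* completed the 12 genes highest against UNT, with log2 fold changes of 6.85, 7.37 and 6.65. In all 12 the treated mice lay above all UNT mice, which was a condition of their choice. Whole kidneys were measured, so more cells of a kind and more mRNA per cell cannot be told apart in these or the other differences.

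The 12 genes furthest below normal included a marker of the distal convoluted tubule and genes of amino acid metabolism and transport. *Pvalb*, which encodes the calcium buffer parvalbumin of the early distal convoluted tubule, was at 16.5 to 33.4 CPM (median 22.2) in UNT kidneys and 0 to 0.893 CPM (median 0.0865) in RGLS4326-treated kidneys, with a difference of -6.57 on the log2 scale (SE 0.46, adjusted p = 3.18e-15). *Hpd*, an enzyme of tyrosine breakdown, was at 57.1 to 457 CPM (median 165) in UNT kidneys and 1.51 to 23.2 CPM (median 5.12) in RGLS4326-treated kidneys (27.6-fold lower). *Dnase1*, the secreted endonuclease, was at 716 to 1747 CPM (median 1062) in UNT kidneys and 33.8 to 151 CPM (median 80.3) in RGLS4326-treated kidneys (14.5-fold lower), and was the most abundant of this group. The betaine-homocysteine methyltransferase gene *Bhmt* (log2 fold change -4.85), the bile acid transporter gene *Slc10a1* (-4.36), the organic anion transporter family members *Slc22a27* (-4.03) and *Slc22a30* (-3.95), the sodium-activated potassium channel gene *Kcnt1* (-4.16) and the phosphatase gene *Dusp15* (-3.65) were also lower. The transcripts *9030619P08Rik*, *Gm11128* and *2310042D19Rik* fell by 18.7-fold, 15.0-fold and 14.2-fold. Of these 12 genes, *Kcnt1*, *Dnase1*, *2310042D19Rik* and *Dusp15* were higher than in PBS-treated kidneys (log2 fold changes of 0.90, 1.08, 0.52 and 0.77; adjusted p = 0.0438, 0.0285, 0.0340 and 0.0129). The absence of overlap with the UNT mice was a condition of their choice.

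**Figure D2:**
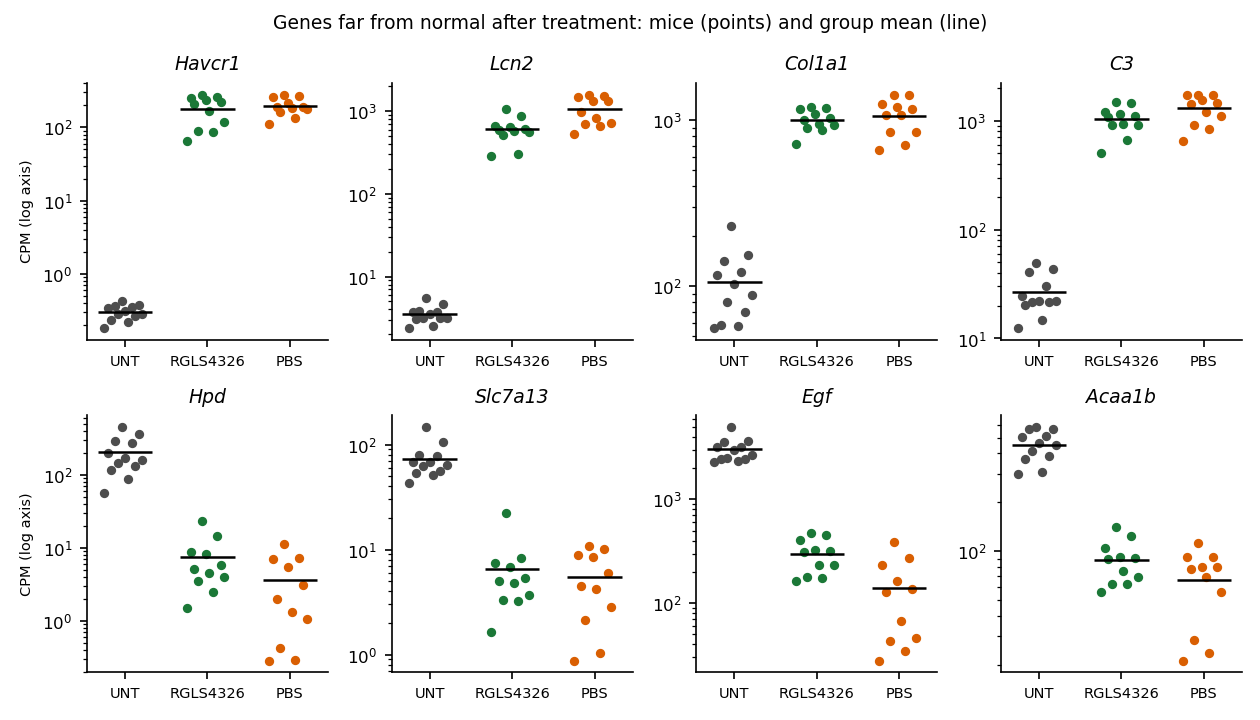
Each panel shows the level of 1 gene in CPM on a log axis, with each mouse as a point and the group mean as a line, for UNT (n = 12), RGLS4326-treated (n = 11) and PBS-treated (n = 11) kidneys. *Havcr1*, *Lcn2*, *Col1a1* and *C3* are above, and *Hpd*, *Slc7a13*, *Egf* and *Acaa1b* below, every UNT mouse in every treated mouse.

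Gene lists were then followed as groups, each described by its calls and by the median log2 fold change of its tested genes, beside 0.02 over all genes. For every list the counts against UNT stand beside 40.8% of all genes higher and 36.9% lower. Counts of treated against PBS stand beside 15.3% higher and 18.5% lower, and counts without overlap with UNT beside 36.7%. List counts near these shares are no result about the list. The tubular injury list was higher as a whole: 16 of 16 were higher and 0 lower after treatment (background 40.8% and 36.9%), with medians of 2.84 after treatment and 3.17 after PBS. *Sox9*, a transcription factor of repairing tubules, was at 0.413 to 2.07 CPM (median 0.819) in UNT kidneys and 5.76 to 15.1 CPM (median 10.9) in RGLS4326-treated kidneys (log2 fold change 3.45, SE 0.21, adjusted p = 1.10e-16). *Spp1*, the osteopontin gene, was at 1360.4 to 2738 CPM (median 1898) in UNT kidneys and 8848 to 18627 CPM (median 14297) in RGLS4326-treated kidneys, and *Clu*, the clusterin gene, was 6.04-fold higher. The smallest difference of the list was that of *Cryab*, a small heat shock protein (0.35; 8 of 11 treated mice within the UNT range, and -0.07 in set 2). In all 11 treated mice the score of the list, the mean log2(CPM + 1) of its genes, was above the highest UNT mouse, by set it was 3.03, 2.60 and 2.85 above UNT, and 8 of the 11 lay within the PBS range.

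Keratins and duct epithelial genes stayed above normal but mostly below the PBS level. All 15 were higher than UNT after treatment and all without overlap between the mice (36.7% of all genes), but 14 of 15 were lower than with PBS (18.5% of all genes were), and the medians were 1.88 after treatment and 2.37 after PBS. The score of the list was 1.69 above UNT in the 4 treated libraries with the most reads in no gene and 2.23 in the other 7, beside a PBS median of 2.54. By set it was 2.21, 1.63 and 2.18. *Krt19*, a keratin of simple epithelia, was at 8.67 to 18.2 CPM (median 13.4) in UNT, 75.3 to 195 CPM (median 131) in RGLS4326-treated and 154 to 476 CPM (median 251) in PBS-treated kidneys. *Krt18* and *Krt8*, which encode the partner keratins of simple epithelium, had log2 fold changes of 2.64 after treatment and 3.41 after PBS and of 1.59 after treatment and 2.18 after PBS. *Cdh3*, P-cadherin, was the highest of the list (3.44, SE 0.11) and *Epcam*, an epithelial adhesion molecule, the lowest (0.67, SE 0.08). The urothelial list, markers of the lining of the renal pelvis, followed the same order, in that 7 of 8 were higher and 0 lower, with medians of 0.59 after treatment and 1.17 after PBS. In set 2 it had 1 gene higher and 1 lower (median 0.19), and with a covariate for non-unique reads 0 were called. Its score was 0.29 above UNT in the 4 treated libraries with the most reads in no gene and 0.74 in the other 7. Its *Upk3b*, a uroplakin, was 3.41-fold higher than UNT, *Krt5*, a basal keratin, 2.13-fold, and *Psca* did not pass the test (-0.19, adjusted p = 0.225).

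Extracellular matrix genes stood far above normal in both groups of knockout kidneys. All 20 fibrillar matrix genes were higher than UNT without overlap (36.7% of all genes), and the medians were 2.28 after treatment and 2.19 after PBS. Against PBS none was lower and 2 were higher (18.5% and 15.3% of all genes). *Col1a1*, the main chain of type I collagen, was at 55.8 to 229 CPM (median 95.9) in UNT, 718 to 1203 CPM (median 1008) in RGLS4326-treated and 667 to 1426 CPM (median 1079) in PBS-treated kidneys, with a difference of 3.24 on the log2 scale (SE 0.20, adjusted p = 5.35e-17). *Col3a1* was 7.76-fold higher than UNT (median 2302 CPM treated, 1744 CPM with PBS) and *Fn1*, fibronectin, 11.0-fold. *Col12a1*, a collagen that lies on fibril surfaces, rose most (5.47, SE 0.18) and *Lum*, the proteoglycan lumican, least (2.17-fold). The score of the list lay within the PBS range in all 11 treated mice. Of the basement membrane genes, 12 of 16 were higher and 2 lower. The widely used chain *Col4a1* was 3.57-fold higher, whereas *Col4a3*, a chain of the mature glomerular basement membrane, was 1.86-fold lower. *Lama1* did not pass the test (0.04, adjusted p = 0.837). All 12 myofibroblast and pericyte genes were higher, with medians of 1.15 after treatment and 1.13 after PBS. *Acta2*, smooth muscle actin, was at 70.3 to 120.4 CPM (median 89.5) in UNT kidneys and 317 to 455 CPM (median 420.0) in RGLS4326-treated kidneys, and *Thy1* was 17.0-fold higher. *Pdgfra*, a receptor of interstitial fibroblasts, was higher than UNT by 0.84 and also higher than PBS by 0.53 (adjusted p = 0.00265), so its treated mean was further from UNT than its PBS mean. *Des*, desmin, met the criterion for the normal level given below (0.29), and its difference was -0.1 in set 2.

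Signalling lists were examined next, and in the TGF-beta, YAP and Wnt lists most members were higher than UNT. Of the TGF-beta and BMP genes 18 of 23 were higher and 2 lower. The ligand gene *Tgfb1* was at 10.1 to 19.0 CPM (median 14.4) in UNT kidneys and 42.3 to 71.2 CPM (median 55.7) in RGLS4326-treated kidneys, and its receptor gene *Tgfbr2* was 4.77-fold higher. *Ltbp2*, a latent TGF-beta binding protein family member, rose most (5.50) and *Ltbp1* did not pass the test (0.03, adjusted p = 0.801). Of the YAP list 13 of 14 were higher and 0 lower, with *Ankrd1* at 1.60 to 5.30 CPM (median 2.49) in UNT kidneys and 59.4 to 92.9 CPM (median 81.6) in RGLS4326-treated kidneys, *Cyr61* 5.36-fold higher, *Yap1* itself higher by 0.19 and *Nt5e* not called (-0.06, adjusted p = 0.756). Of the Wnt pathway 19 of 24 were higher and 3 lower, with medians of 0.44 after treatment and 0.50 after PBS. The median against UNT was 0.74 with scaling by library size alone, and 0.15 with 10 genes higher under a covariate for non-unique reads. The feedback inhibitor gene *Nkd2* was 27.4-fold higher (median 1.98 CPM in UNT and 53.5 CPM after treatment) and did not differ from PBS by the test (adjusted p = 0.468). The ligand genes *Wnt9a* and *Wnt7b* had log2 fold changes of 3.19 after treatment and 4.07 after PBS and of 2.01 after treatment and 2.75 after PBS, and the co-receptor gene *Lrp6* was at -0.09 (adjusted p = 0.364). Among growth factors and their receptors 11 of 21 were higher and 6 lower (40.8% and 36.9% of all genes), and 14 were higher and 3 lower with scaling by library size alone. *Hgf*, hepatocyte growth factor, was at 1.40 to 3.99 CPM (median 2.14) in UNT, 5.71 to 18.5 CPM (median 11.9) in RGLS4326-treated and 1.82 to 11.5 CPM (median 7.19) in PBS-treated kidneys, and was higher than in both other groups (against PBS 0.73, adjusted p = 0.0106). *Erbb4*, an EGF receptor relative, was higher by 3.20, with 1 treated mouse within the UNT range, *Ereg*, which encodes the ligand epiregulin, rose from a median of 0.0611 to 1.13 CPM (4.02), and *Erbb2* did not pass the test (0.01, adjusted p = 0.861).

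Immune genes remained high. Of 17 macrophage genes tested, 15 were higher and 2 lower than UNT, with the highest median of all lists, 3.82 after treatment and 4.18 after PBS. Against PBS 8 were lower (18.5% of all genes) and 1 higher (15.3%). The score was 2.60 above UNT in the 4 treated libraries with the most reads in no gene and 3.03 in the other 7. *Lyz2*, lysozyme, was at 10.7 to 20.0 CPM (median 13.7) in UNT kidneys and 289.5 to 655 CPM (median 508) in RGLS4326-treated kidneys, a 33.4-fold difference. *C1qa*, which encodes a chain of the complement starter C1q made by macrophages, and *Cd68*, a lysosomal membrane marker, had log2 fold changes of 4.03 after treatment and 4.50 after PBS and of 3.03 after treatment and 3.83 after PBS. The members lower than UNT were *Mertk*, a receptor for dying cells that epithelium and other cells also express (-0.71 after treatment, -1.17 after PBS), and *Folr2*, described below. T, NK and B lymphocyte genes were fewer in reads: *Cd4* had a median of 1.21 CPM in UNT and 5.63 CPM in treated kidneys, *Cd3e*, of the T cell receptor complex, 0.223 and 1.01 CPM, and *Cd8b1* 0.219 and 1.07 CPM, with log2 fold changes of 2.45, 2.11 and 2.27. Of the list 10 of 15 were higher and 2 lower, with *Cd8a*, named after its values were seen, at -0.52 among the lower genes, and the B cell gene *Cd79a* was at 0.10 (adjusted p = 0.702). Of the 8 neutrophil genes tested, 6 were higher. *Mmp8*, neutrophil collagenase, had a log2 fold change of 3.88 and *Cxcr2*, a chemokine receptor of neutrophils, of 3.55, both from under 1 CPM in UNT. *Ltf*, lactoferrin, was higher with PBS (2.03) and not called after treatment (0.15, adjusted p = 0.720).

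Genes of secreted defence factors were also high. Complement genes were called 12 higher and 1 lower of 13, with medians of 2.16 after treatment and 1.91 after PBS. Directly against PBS the median was -0.18, with 2 genes higher and 3 lower (15.3% and 18.5% of all genes). *C3*, the central complement component, was at 12.3 to 49.4 CPM (median 22.1) in UNT, 507 to 1477 CPM (median 1087) in RGLS4326-treated and 654 to 1730.2 CPM (median 1407) in PBS-treated kidneys, which is 38.5-fold above UNT after treatment. *C4b* was 15.7-fold higher than UNT and lower than PBS with a log2 fold change of -1.26. *Cd55*, an inhibitor of complement, changed least (0.28). Of 18 chemokine and NF-kappaB response genes, 17 were higher and 1, *Cxcl12*, was lower (-0.66). *Ccl2*, which attracts monocytes, was at 0.107 to 0.431 CPM (median 0.230) in UNT kidneys and 4.02 to 17.8 CPM (median 10.3) in RGLS4326-treated kidneys, *Ccl20* was at a median of 1.41 CPM with 9 reads in all UNT libraries, *Tnf* was 16.9-fold higher and *Nfkbia*, the feedback inhibitor, was higher by 0.30. Of the interferon response 14 of 15 were higher and 1 lower. *Mx1* was higher by 2.54, *Ifit1* by 1.56 and *Isg15* by 1.68, while *Rsad2* was lower, at -0.32.

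Cell division genes were mostly above normal, with the UNT mice themselves widely spread. Of the 20 mitosis genes 19 were higher than UNT, with medians of 0.99 after treatment and 0.64 after PBS. *Mki67*, the proliferation marker Ki-67, was at 17.2 to 91.3 CPM (median 39.0) in UNT, 61.1 to 122 CPM (median 81.1) in RGLS4326-treated and 44.4 to 84.3 CPM (median 65.5) in PBS-treated kidneys, and 8 of 11 treated mice were within the UNT range. *Top2a*, topoisomerase II, was the largest change (1.33, SE 0.18, adjusted p = 2.10e-08), *Cdk1* was 2.14-fold higher, *Bub1*, a spindle checkpoint kinase, by 1.05, and *Cdc20* did not pass the test (0.36, adjusted p = 0.0972). Against PBS, 3 of the 20 were higher and none lower (15.3% and 18.5% of all genes). The list's score varied widely among the UNT mice, from -0.98 to 0.95 around their mean, and 7 treated mice lay within that range. Treated kidneys were 1.21, 0.72 and 0.80 above UNT in the 3 sets. Of the 20 DNA replication genes 16 were higher and 1 lower, with medians of 0.66 after treatment and 0.71 after PBS. With a covariate for non-unique reads 4 replication genes (median 0.30) and 10 mitosis genes were called higher. The helicase subunit gene *Mcm3* was at 9.57 to 24.5 CPM (median 16.3) in UNT kidneys and 26.0 to 42.8 CPM (median 34.9) in RGLS4326-treated kidneys, the transcription factor gene *E2f8* was higher by 1.85, *Pcna* by 0.26, and the clamp loader gene *Rfc4* and the cyclin gene *Ccne2* did not pass the test (0.17 and 0.18, adjusted p = 0.0644 and 0.462). Inhibitors of the cell cycle moved in both directions. *Cdkn1a*, p21, was at 5.02 to 27.6 CPM (median 19.4) in UNT kidneys and 58.6 to 104 CPM (median 84.3) in RGLS4326-treated kidneys (4.51-fold higher), and *Cdkn2a*, the locus of p16 and p19, had 9 reads in all UNT libraries and a median of 1.84 CPM in treated kidneys, lower than with PBS with a log2 fold change of -1.01. The p53 target *Phlda3* was higher by 1.96, *Cdkn1c*, p57, was lower with a log2 fold change of -1.17, and *Cdkn1b*, p27, was at 0.02 (adjusted p = 0.773). In the whole list 10 of 16 were higher and 2 lower.

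Nephron segment genes stayed below normal from the proximal tubule to the intercalated cells. Of 20 proximal tubule transporters 19 were lower than UNT, 18 without overlap (36.7% of all genes). The medians were -1.66 after treatment and -2.49 after PBS, and 11 were higher than with PBS (15.3% of all genes). *Slc34a1*, the main phosphate transporter, was at 3988 to 5852 CPM (median 4677) in UNT, 700.4 to 1318 CPM (median 1056) in RGLS4326-treated and 251 to 1162 CPM (median 638) in PBS-treated kidneys, which after treatment is 4.70-fold below UNT. *Slc5a2*, the glucose transporter SGLT2, was at 513 to 749 CPM (median 608) in UNT, 101 to 172 CPM (median 134) in RGLS4326-treated and 49.2 to 117 CPM (median 93.7) in PBS-treated kidneys. *Slc7a13*, an amino acid transporter of the late proximal tubule, was furthest from normal (-3.47, 11.0-fold lower), *Slc22a6*, the organic anion transporter OAT1, was 5.69-fold lower, and *Slc5a12*, a lactate transporter, was at -1.49 after treatment and -2.39 after PBS. *Slc13a1*, a sulfate transporter, was the exception. It was at 193 to 344 CPM (median 249.8) in UNT, 248 to 475 CPM (median 423) in RGLS4326-treated and 207 to 511 CPM (median 280.1) in PBS-treated kidneys, higher than UNT after treatment (0.61, SE 0.14, adjusted p = 0.000205) and not called after PBS (0.29, adjusted p = 0.0546). The receptors that take up filtered protein, *Lrp2* (megalin) and *Cubn* (cubilin), had log2 fold changes of -1.95 after treatment and -2.59 after PBS and of -1.49 after treatment and -2.13 after PBS, and in their list 1 of 7 were higher and 6 lower, with *Rab11a*, a recycling GTPase, the least changed (-0.15). All 8 proximal tubule transcription factors and partners were lower. *Hnf4a* was at 584 to 784 CPM (median 706) in UNT kidneys and 212 to 377 CPM (median 309.9) in RGLS4326-treated kidneys, *Ppara*, which controls fatty acid oxidation genes, was lower with a log2 fold change of -1.02, the scaffold gene *Pdzk1* at -1.93 and *Cux1* at -0.27.

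In the thick ascending limb 12 of 14 genes were lower and 1 higher, with medians of -0.96 after treatment and -1.05 after PBS. *Egf*, a growth factor made in the distal nephron, was at 2294 to 4992 CPM (median 2831) in UNT, 165 to 469.8 CPM (median 314) in RGLS4326-treated and 27.8 to 390.2 CPM (median 128) in PBS-treated kidneys and remained 10.2-fold below UNT, although it was higher than with PBS (adjusted p = 0.0135). *Slc12a1*, the furosemide-sensitive cotransporter, was 2.92-fold lower, whereas *Umod*, uromodulin, was 1.40-fold lower, and *Cldn19* did not pass the test (0.21, adjusted p = 0.0677). In the distal convoluted tubule 13 of 15 genes were lower and 2 higher (medians -0.98 after treatment and -1.34 after PBS). *Slc12a3*, the thiazide-sensitive cotransporter, was at 1021 to 1851 CPM (median 1413) in UNT kidneys and 257 to 440.0 CPM (median 338) in RGLS4326-treated kidneys, *Calb1*, a calcium buffer, was 4.24-fold lower, the calcium channel gene *Trpv5* was higher by 0.56, and *Stk39*, a kinase that activates these cotransporters, was higher by 0.37. In intercalated cells, which secrete acid or base, 12 of 13 genes were lower (medians -1.48 after treatment and -1.53 after PBS). Directly against PBS the median was -0.13, with 1 gene higher and 3 lower (15.3% and 18.5% of all genes). The score had a median of -1.27 around the UNT mean after treatment and -1.17 after PBS, with 5 of 11 treated mice within the PBS range. The anion exchanger genes *Slc4a1* and *Slc26a4* were 4.70-fold and 3.21-fold lower, and *Insrr*, an alkali-sensing receptor, 4.44-fold.

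Principal cell genes lay mostly above normal. Of 13 genes 9 were higher than UNT and none lower, with medians of 0.76 after treatment and 1.38 after PBS. Against PBS 8 were lower (18.5% of all genes) and none higher (15.3%). *Aqp2*, the vasopressin-regulated water channel, was at 161 to 384 CPM (median 238) in UNT, 101 to 918 CPM (median 269) in RGLS4326-treated and 179.8 to 1192 CPM (median 593) in PBS-treated kidneys. It was not called against UNT after treatment (0.49, SE 0.29, adjusted p = 0.118) but was after PBS (1.27). *Avpr2*, the vasopressin receptor, was at 0.89 after treatment and 1.51 after PBS, *Aqp4* was higher by 1.38, *Aqp3* was at 0.09 (adjusted p = 0.711), and the transcription factor gene *Tfcp2l1* at -0.02 (adjusted p = 0.820). The treated mice were spread over most of the distance between the groups, from -0.10 to 1.27 of score around the UNT mean, and 2 were within the UNT range. By set the difference was 0.77, 0.21 and 0.76, and it was 0.27 in the 4 libraries with the most reads in no gene and 0.80 in the other 7. In set 2 alone 3 genes were higher and 1 lower. With a covariate for non-unique reads 0 were higher and 2 lower, and the median of the list was -0.22. The part of library composition in this was not tested.

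Podocyte and endothelial lists had scores near normal, with members on both sides of it. Of 12 podocyte genes 5 were higher and 7 lower (40.8% and 36.9% of all genes). *Nphs1*, which encodes nephrin of the slit diaphragm, was 2.54-fold lower, whereas *Synpo*, synaptopodin, was 1.65-fold and *Tcf21*, a transcription factor also of interstitial cells, 2.52-fold higher. *Wt1* was at -0.29 on the log2 scale, within the margin given below. Of 12 endothelial genes 3 were higher and 6 lower, at the same all-gene shares, and 6 were higher than with PBS (15.3% of all genes). *Emcn*, endomucin of capillaries and veins, was at 116 to 159 CPM (median 145) in UNT kidneys and 77.0 to 99.5 CPM (median 87.1) in RGLS4326-treated kidneys, *Cdh5*, VE-cadherin, was higher by 0.70, and *Plvap* was at 0.01 (adjusted p = 0.934; -0.56 in set 2). By score, 9 of 11 treated mice were within the UNT range for podocyte genes and 7 for endothelial genes, and the endothelial difference was 0.04, -0.33 and 0.01 in the 3 sets. With scaling by library size alone, the medians of these lists became 0.01 and 0.16, from -0.30 and -0.15, with 5 higher and 4 lower podocyte genes and 6 higher and 1 lower endothelial genes.

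**Figure D3:**
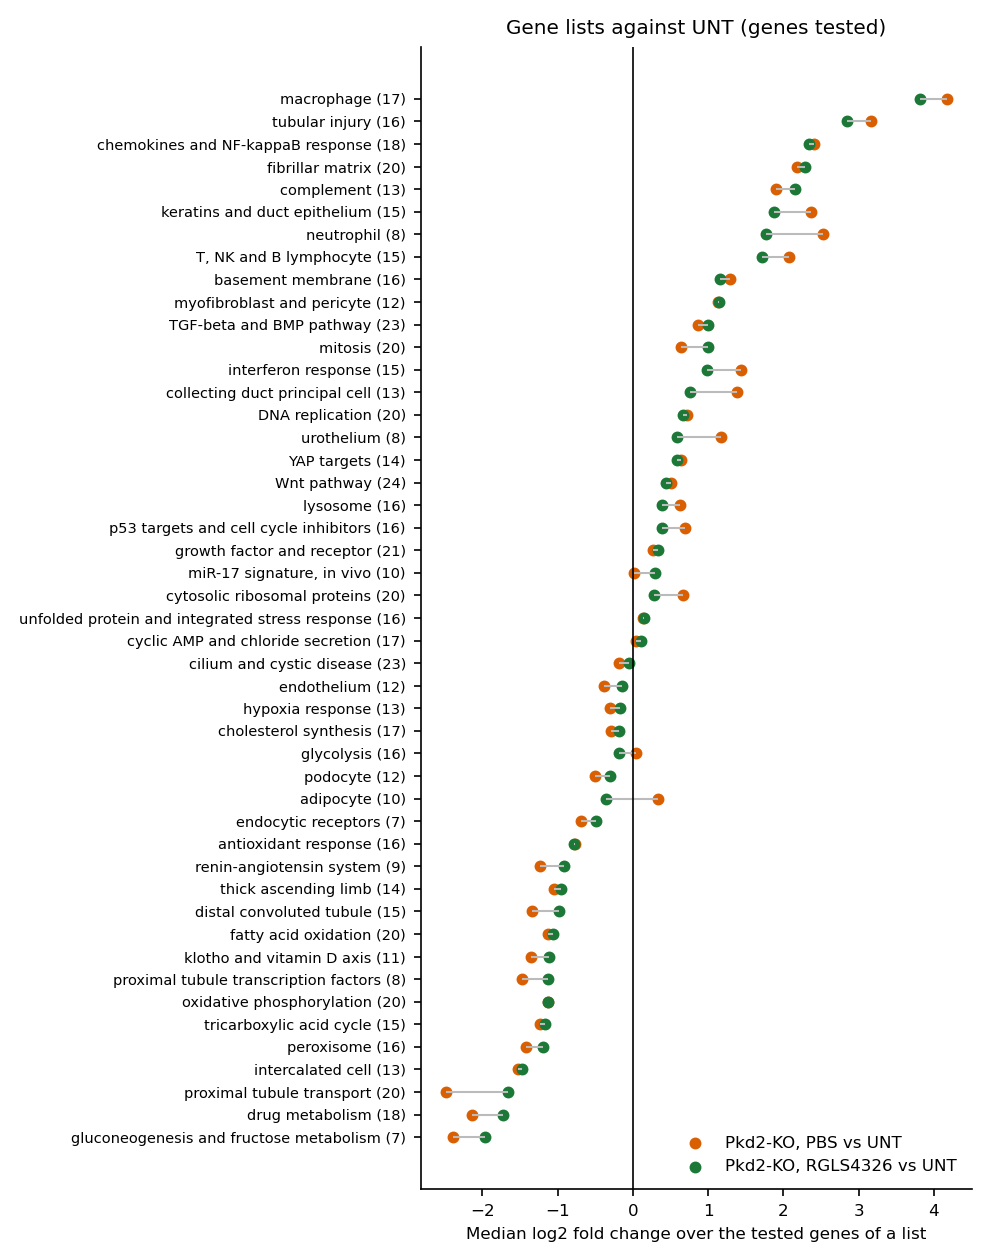
For each gene list (rows, with the number of genes tested; lists with fewer than 7 are left out) the points give the median log2 fold change against UNT, green for RGLS4326-treated and orange for PBS-treated kidneys. After treatment the macrophage list is highest (3.82) and the gluconeogenesis list lowest (-1.97). With PBS the lowest is proximal tubule transport (-2.49), and oxidative phosphorylation is at -1.13 in both comparisons.

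Genes of mitochondrial energy metabolism were lower throughout. All 20 oxidative phosphorylation genes were lower than UNT without overlap (36.7% of all genes did not overlap). Their log2 fold changes lay in a narrow range from -1.49 to -0.94, and the median was -1.13 in both treated and PBS-treated kidneys. Against PBS 1 gene was higher and 1 lower (15.3% and 18.5% of all genes). *Cox6c*, a subunit of cytochrome c oxidase, was at 454 to 662 CPM (median 583) in UNT kidneys and 161 to 256 CPM (median 202) in RGLS4326-treated kidneys (-1.49, SE 0.11, adjusted p = 7.88e-15), *Atp5b*, the catalytic subunit of the ATP synthase, at 3289.5 to 3886 CPM (median 3585) in UNT kidneys and 1333 to 2122 CPM (median 1797) in RGLS4326-treated kidneys, *Ndufs1* of complex I was 2.47-fold and *Cox4i1* 1.92-fold lower. All 15 tricarboxylic acid cycle genes were lower without overlap (36.7% of all genes), with medians of -1.16 after treatment and -1.23 after PBS. They ranged from *Pcx*, pyruvate carboxylase (-1.93) to *Cs*, citrate synthase (-0.50). All 20 fatty acid oxidation genes were lower (medians -1.06 after treatment and -1.13 after PBS). *Acaa1b*, a peroxisomal thiolase, was at 298 to 582 CPM (median 456) in UNT, 55.8 to 141 CPM (median 89.1) in RGLS4326-treated and 21.2 to 113 CPM (median 78.0) in PBS-treated kidneys, *Acadm*, medium-chain acyl-CoA dehydrogenase, was 3.55-fold lower, *Cpt1a*, the gate of mitochondrial fatty acid entry, 1.60-fold with 3 treated mice within the UNT range, and *Crot* changed least (-0.42). All 16 peroxisome genes were lower (medians -1.19 after treatment and -1.42 after PBS), with *Agxt2* at -2.41, catalase, *Cat*, at -1.49 and *Pex14*, of the import machinery, at -0.23.

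Other metabolic lists were mixed. All 7 gluconeogenesis and fructose genes tested were lower without overlap (36.7% of all genes), with medians of -1.97 after treatment and -2.39 after PBS. Of these, 4 were higher than with PBS (15.3% of all genes). *Pck1*, the rate-limiting enzyme of gluconeogenesis, was at 2689.8 to 7804 CPM (median 5164) in UNT, 329 to 1547 CPM (median 804) in RGLS4326-treated and 118 to 1616 CPM (median 507) in PBS-treated kidneys, *G6pc*, glucose-6-phosphatase, was 4.82-fold lower, *Fbp1* 3.91-fold and *Glyctk* 2.87-fold. Of 16 glycolysis genes 5 were higher and 8 lower than UNT (40.8% and 36.9% of all genes), and 9 were lower than with PBS (18.5% of all genes). The median against UNT was -0.19, and with scaling by library size alone it was 0.11, with 8 genes higher and 5 lower. The list's score differed from UNT by 0.08, -0.33 and -0.0031 in sets 1, 2 and 3, with 3 genes higher and 11 lower in set 2, and by -0.29 in the 4 treated libraries with the most reads in no gene and 0.07 in the other 7. The lactate exporter gene *Slc16a3* was 4.08-fold and *Hk2*, hexokinase 2, 2.14-fold higher, *Pfkm*, the muscle type of phosphofructokinase, was 1.87-fold lower, and *Pkm*, pyruvate kinase, was higher with PBS (0.46) and at 0.02 after treatment (adjusted p = 0.852), as was *Pfkl* (0.27 and -0.02). For *Pkm* the difference from UNT was -0.39 in set 2. Of 17 cholesterol synthesis genes 4 were higher and 8 lower (40.8% and 36.9% of all genes), and with scaling by library size alone it was 7 and 4. *Cyp51* was 3.52-fold and *Hmgcs1* 2.35-fold lower, *Sqle*, squalene epoxidase, 1.98-fold higher, and *Dhcr7* did not pass the test (-0.02, adjusted p = 0.873). Of 18 drug metabolism genes 16 were lower and 2 higher, among the latter the retinal dehydrogenase gene *Aldh1a1* (4.17-fold). *Cyp2e1* was lower with a log2 fold change of -0.90, *Gstm1* at -0.54, and *Ugt2b38*, with the largest fitted change of the list (-3.10, SE 1.09), ranged from 0 to 163 CPM among UNT mice and overlapped fully.

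**Figure D4:**
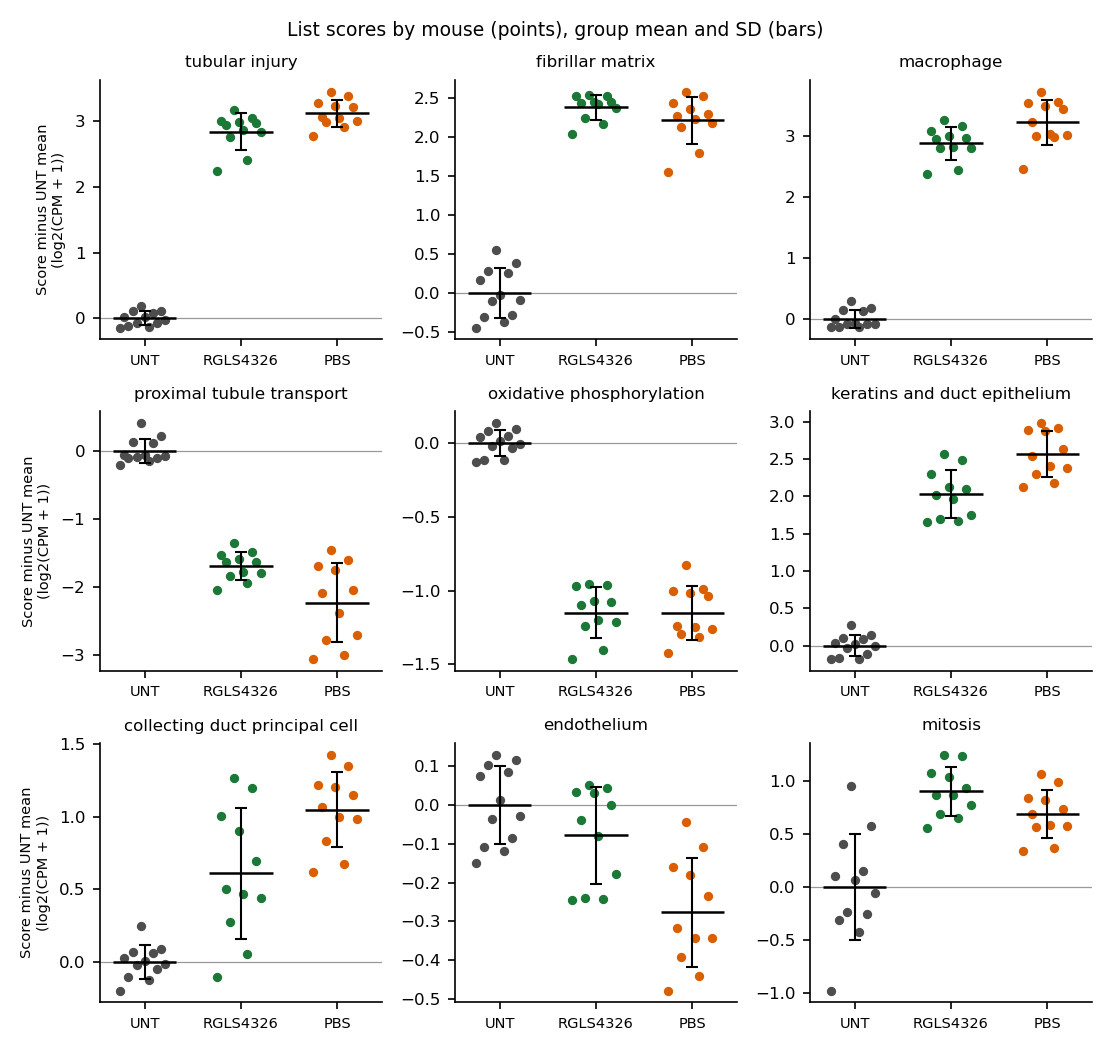
For 9 gene lists the score of each mouse (point) is shown as mean log2(CPM + 1) of the list's genes minus the UNT mean, with the group mean and SD as bars, for UNT (n = 12), RGLS4326-treated (n = 11) and PBS-treated (n = 11) kidneys. Injury, matrix, macrophage, transport and oxidative phosphorylation scores of treated mice do not overlap with UNT, while 2, 7 and 7 treated mice lie within the UNT range for principal cell, endothelial and mitosis genes.

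Among further pathways, of genes of the cilium and of cystic disease 7 of 23 were higher and 9 lower (40.8% and 36.9% of all genes), with a median of -0.05, and with scaling by library size alone 14 were higher and 3 lower, with a median of 0.25. *Pkhd1*, the fibrocystin gene of recessive disease, whose promoter drives the Cre, was higher by 0.74, *Glis3* by 1.32, the transport gene *Ift88* was at -0.21, and *Cep290* did not pass the test (-0.04, adjusted p = 0.758). Of cyclic AMP and chloride secretion genes 7 of 17 were higher and 4 lower (40.8% and 36.9% of all genes), and 12 were higher and 1 lower with scaling by library size alone. *Cftr*, the chloride channel of cyst fluid secretion, was at 6.72 to 16.5 CPM (median 8.41) in UNT, 12.2 to 28.8 CPM (median 16.9) in RGLS4326-treated and 8.12 to 24.8 CPM (median 14.6) in PBS-treated kidneys (0.99, SE 0.17, adjusted p = 4.08e-06). *Pde3a*, which breaks down cyclic AMP, was higher than UNT by 1.71 and than PBS by 0.57 (adjusted p = 0.00983), and *Creb1* did not pass the test (0.03, adjusted p = 0.834). Of the hypoxia list 2 of 13 were higher and 6 lower (40.8% and 36.9% of all genes), and 6 were higher and 4 lower with scaling by library size alone. Without the 4 treated libraries with the most reads in no gene 5 were higher and 8 lower. *Vegfa*, the endothelial growth factor, was at 356 to 427 CPM (median 378) in UNT kidneys and 52.5 to 189 CPM (median 101) in RGLS4326-treated kidneys and *Car9*, a carbonic anhydrase induced by hypoxia, was 3.40-fold lower, while *Egln3*, an oxygen sensor, was 3.19-fold higher and *Kdm3a* at -0.03 (adjusted p = 0.808). Of stress response genes 6 of 16 were higher and 1 lower (40.8% and 36.9% of all genes), and with scaling by library size alone 11 of 16 were higher. *Atf3* was 6.74-fold and *Asns*, asparagine synthetase, 3.20-fold higher, *Herpud1* was 2.14-fold lower and *Atf4* was not called (0.01, adjusted p = 0.901).

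Of antioxidant genes 3 of 16 were higher and 11 lower. *Gpx3*, the plasma glutathione peroxidase made by the kidney, was at 15514 to 20688 CPM (median 19539) in UNT kidneys and 5312 to 10569 CPM (median 8243) in RGLS4326-treated kidneys, the cystine transporter gene *Slc7a11* was 3.39-fold higher and *Txnrd1* not called (-0.03, adjusted p = 0.580). In the renin-angiotensin system 7 of 9 genes were lower. *Ren1*, renin, was at 23.5 to 42.8 CPM (median 34.8) in UNT kidneys and 5.35 to 9.11 CPM (median 7.27) in RGLS4326-treated kidneys, *Ace* was 2.28-fold and the receptor gene *Agtr1a* 1.68-fold lower, and *Agt* was at -0.12 (adjusted p = 0.385). *Kl*, klotho, the co-receptor for FGF23, was at 785 to 1113 CPM (median 1021) in UNT, 228 to 306 CPM (median 249) in RGLS4326-treated and 117 to 299 CPM (median 209.5) in PBS-treated kidneys and remained 3.76-fold below UNT. In its list 1 of 11 were higher and 8 lower, and it included the vitamin D receptor gene *Vdr* (-1.11) and *Cyp24a1*, which degrades vitamin D (0.15, adjusted p = 0.721). Of lysosome genes 10 of 16 were higher and 5 lower, with 11 higher and 0 lower when scaled by library size alone and 6 higher and 5 lower in set 2 (median 0.13). The score was 0.29 above UNT in the 4 treated libraries with the most reads in no gene and 0.64 in the other 7. Members ranged from *Ctss*, a protease of antigen-presenting cells (21.0-fold higher), and *Ctsd* (2.64-fold, and lower than with PBS with a log2 fold change of -0.60) to the regulator gene *Tfeb* (-0.05, adjusted p = 0.586).

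A gene was counted as back at the normal level when PBS-treated kidneys differed from UNT by more than 0.5 on the log2 scale in a called comparison (8801 genes, 56.3%) and the 95% interval of the treated difference lay wholly within 0.5 of UNT. By this rule a gene could still be called against UNT after treatment, by less than 0.5, as *Des* and *Mink1* were. This interval criterion was met by 410 genes, of which 216 were higher and 194 lower in PBS than in UNT. Over all genes, 5262 (33.6%) had such an interval. Nearly all the 410 had been mildly off. Among the 3753 genes with a PBS difference from 0.5 to 1, 409 (10.9%) were at the normal level, among the 3187 with a difference from 1 to 2 it was 1 gene (0.0314%), and among the 1861 above 2 it was none. Of those 1861, 1222 had a treated interval narrow enough to fit the margin, and 1856 were called against UNT. At a margin of 0.25 no gene met the criterion. Without the 4 treated libraries with over 11% of reads in no gene 133 genes met it, 111 of them among the 410. In that fit 393 of the 410 kept a log2 fold change within 0.5, and 364 moved towards the PBS side. Within the 3 sets 123, 442 and 84 genes met it, of which 67, 48 and 3 were among the 410. With the size factors of DESeq2, 276 of 400 such genes were among the 410, and with scaling by library size alone 4 of 345, so which genes counted as normal rested on the scaling. With a covariate for unassigned reads it was 75.

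Among the 10 genes at the normal level with the largest PBS difference, *Robo2*, a guidance receptor that shapes ureter budding and is found in podocytes, was at 15.8 to 28.5 CPM (median 23.9) in UNT, 17.4 to 24.4 CPM (median 21.0) in RGLS4326-treated and 8.33 to 20.6 CPM (median 12.7) in PBS-treated kidneys. All 11 treated mice were within the UNT range, and the difference from UNT was a difference of -0.17 on the log2 scale (SE 0.12, adjusted p = 0.187), against -0.78 with PBS. *Grm7*, a glutamate receptor gene at a median of 0.601 CPM in UNT, had the largest PBS difference of them (-1.16) and was at -0.08 after treatment, but 0.70 in set 1. *Slc25a40*, a mitochondrial carrier (-0.89 with PBS, -0.25 treated), *Cenpk*, a kinetochore gene (-0.84 and -0.04), the lysophosphatidic acid receptor gene *Lpar4* (-0.80 and 0.08), *Styx*, a pseudophosphatase (-0.79 and -0.17), and *4930503L19Rik* (-0.76 and -0.01) had been below normal. *Syt16* (0.79 and 0.05) and *Rpl13a* (0.75 and 0.28) had been above it. The group mean hid a spread between mice for *4930503L19Rik*, of which 4 treated mice were above, 6 below and 1 within the UNT range, and for *Slc25a40*, with 7 treated mice below it.

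Of the 721 listed genes tested, 634 were called against UNT (77.7% of all genes were) and 17 were at the normal level, which 410 of all 15644 genes tested were. These included *Kdr*, the main VEGF receptor, which was at 51.4 to 93.7 CPM (median 73.4) in UNT, 60.6 to 74.6 CPM (median 69.2) in RGLS4326-treated and 29.5 to 62.1 CPM (median 49.9) in PBS-treated kidneys, with all 11 treated mice in the UNT range. *Rhcg*, an ammonia channel of the collecting duct, was at 145 to 257 CPM (median 199) in UNT, 121 to 391 CPM (median 228) in RGLS4326-treated and 238 to 394 CPM (median 337) in PBS-treated kidneys, so that its mean was near UNT while the treated mice reached beyond the UNT range on both sides. *Cldn16*, a paracellular magnesium channel, was at 11.7 to 17.5 CPM (median 14.9) in UNT, 14.8 to 22.1 CPM (median 18.9) in RGLS4326-treated and 17.1 to 30.3 CPM (median 23.2) in PBS-treated kidneys, and in set 2 its difference was -0.01. Ribosomal proteins were the list with the most members at the normal level, 4 of 20. Of these 20 genes 16 were still higher than UNT (40.8% of all genes) and 15 were lower than with PBS (18.5% of all genes). The medians were 0.28 after treatment and 0.66 after PBS. With scaling by library size alone 20 were higher (median 0.57). *Rpl13a* was at 327 to 477 CPM (median 398) in UNT, 399.8 to 562 CPM (median 479.7) in RGLS4326-treated and 489 to 1182 CPM (median 610.5) in PBS-treated kidneys, and *Rps27a* did not pass the test (0.07, adjusted p = 0.512). With a covariate for unassigned reads 4 of the 20 were called higher, with one for non-unique reads 1, and in sets 1, 2 and 3 it was 14, 1 and 5. The list's score was 0.10 above UNT in the 4 treated libraries with the most reads in no gene and 0.35 in the other 7.

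Only 2 genes met the criterion for having passed the normal level, called on one side of UNT with PBS and on the other after treatment, by more than 0.5 on the log2 scale each time. *Folr2*, a folate receptor of resident macrophages, was at 2.65 to 6.80 CPM (median 3.84) in UNT, 2.07 to 3.93 CPM (median 2.76) in RGLS4326-treated and 3.46 to 14.2 CPM (median 6.79) in PBS-treated kidneys. It was higher with PBS (0.83, SE 0.18, adjusted p = 8.54e-05) and lower after treatment (-0.52, SE 0.19, adjusted p = 0.0116), with 2 treated mice below the UNT range and 9 within it. By set the treated difference from UNT was -0.28, -0.71 and -0.57. *Slc7a10*, an amino acid transporter, was at 0.0802 to 1.90 CPM (median 0.528) in UNT, 0.201 to 0.679 CPM (median 0.427) in RGLS4326-treated and 0.717 to 1.64 CPM (median 1.16) in PBS-treated kidneys (0.64 with PBS, adjusted p = 0.0494, and -0.82 treated, adjusted p = 0.0264) and all 11 treated mice were within the UNT range. Its treated difference was -0.06, -1.60 and 0.08 in the 3 sets, and neither gene met the criterion within any set, where 2, 9 and 0 other genes did. *Slc7a10* lost a call under every alternative fit of the 3 groups, among them scaling by RLE (adjusted p = 0.0633 with PBS), a term for library number set (adjusted p = 0.0651 treated), DESeq2 (adjusted p = 0.0551 with PBS) and without the 4 treated libraries with the most reads in no gene (adjusted p = 0.083 treated). *Folr2* was at -0.23 (adjusted p = 0.266) after treatment with scaling by library size alone and lost a call under both read-share covariates. It kept both calls with RLE, no filter, the set term, the replicate block, the sex covariate, DESeq2 and without the 4 libraries. When the condition on size was dropped, 10 genes were called on opposite sides of UNT, 6 of them above UNT after treatment and below it with PBS. These 10 were chosen after their values were seen. Above normal were *Itga8*, an integrin of mesangial cells and fibroblasts, at 28.9 to 62.5 CPM (median 43.5) in UNT, 49.2 to 61.8 CPM (median 57.8) in RGLS4326-treated and 17.8 to 49.7 CPM (median 37.1) in PBS-treated kidneys (0.34 after treatment and -0.29 after PBS), *Tfpi*, an inhibitor of coagulation (0.25 after treatment and -0.24 after PBS), *Ecm2*, a matrix protein (0.34 after treatment and -0.45 after PBS), *Pla2r1*, the phospholipase receptor of podocytes (0.28 after treatment and -0.41 after PBS), *Ptprb*, an endothelial phosphatase (0.24 after treatment and -0.23 after PBS), and *Nid2*, a basement membrane protein (0.21 after treatment and -0.21 after PBS). Below normal were, beside *Folr2* and *Slc7a10*, *Rhof*, a small GTPase (-0.35 after treatment and 0.31 after PBS), and *Foxi1*, the transcription factor that sets intercalated cell identity (-0.32 after treatment and 0.31 after PBS). All 11 treated mice were within the UNT range for *Itga8* and *Nid2*, and *Nid2* was -0.10 in set 2. 

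**Figure D5:**
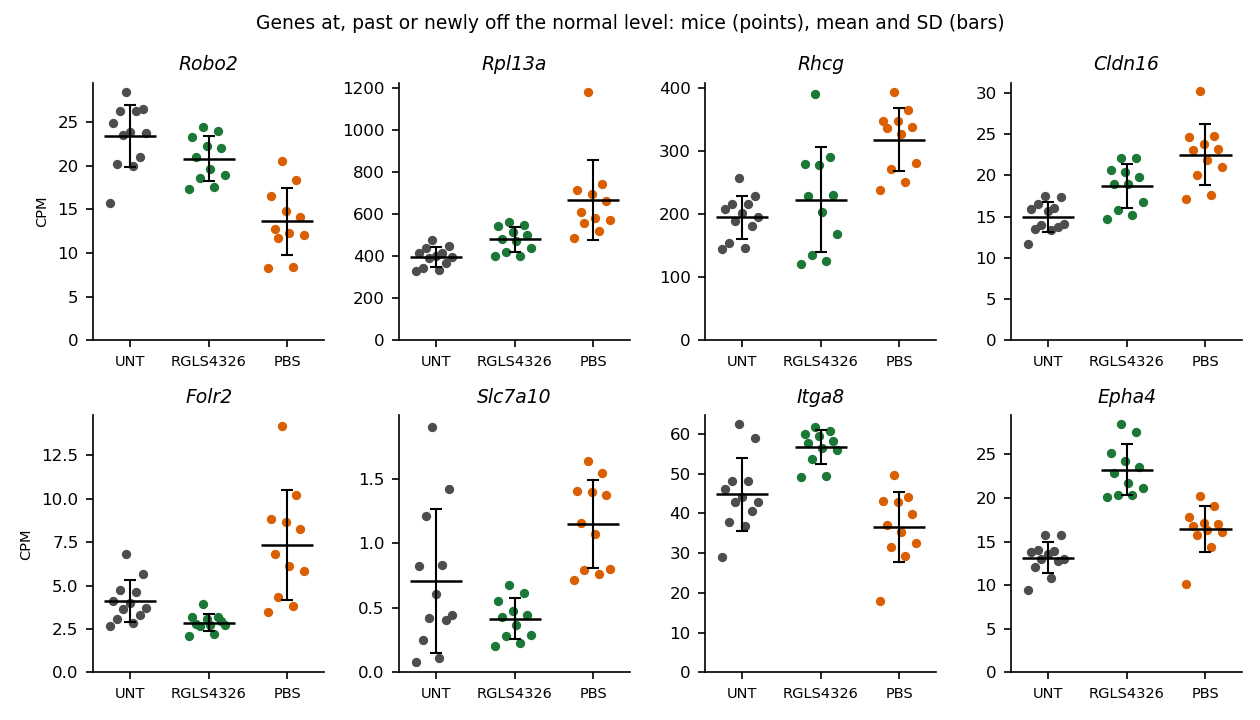
Each panel shows 1 gene in CPM (linear axis from 0), with each mouse as a point and bars for the group mean and SD, in UNT (n = 12), RGLS4326-treated (n = 11) and PBS-treated (n = 11) kidneys. *Robo2*, *Rpl13a*, *Rhcg* and *Cldn16* met the criterion for the normal level, *Folr2* and *Slc7a10* passed it, *Itga8* did so without the condition on size, and *Epha4* was above UNT in all 11 treated mice.

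A further 139 genes were counted as off normal after treatment alone, with a called treated difference above 0.5 and a PBS interval within 0.5 of UNT. A PBS difference inside that margin could still be called, so the name does not mean that PBS-treated kidneys equalled UNT. Of the 139 genes, 69 were higher and 70 lower than UNT after treatment. In 132 the PBS mean was on the same side of UNT, 125 differed between RGLS4326 and PBS, 100 had an absolute log2 fold change under 0.6, and none exceeded 1. *Epha4*, an ephrin receptor, was the largest of the 6 with the smallest p. It was at 9.50 to 15.8 CPM (median 13.3) in UNT, 20.1 to 28.5 CPM (median 22.8) in RGLS4326-treated and 10.1 to 20.2 CPM (median 16.7) in PBS-treated kidneys, and all treated mice were above all UNT mice (0.82, SE 0.09, adjusted p = 2.19e-10; 0.32 with PBS). *Jmjd8* (-0.59 after treatment and -0.38 after PBS), *Cyhr1* (-0.54 after treatment and -0.37 after PBS), *Aup1*, which acts in protein quality control and lipid droplets (-0.56 after treatment and -0.35 after PBS), and *Lamtor2*, a lysosomal scaffold of mTORC1 signalling (-0.64 after treatment and -0.36 after PBS), were below all UNT mice in all treated mice, and *Eri1*, an exonuclease, was higher (0.52 after treatment and 0.37 after PBS). Among listed genes 6 were in this class, of which *Pecam1*, the endothelial marker CD31, was at 83.1 to 118 CPM (median 94.6) in UNT, 114 to 157 CPM (median 134) in RGLS4326-treated and 98.4 to 143 CPM (median 118) in PBS-treated kidneys (0.51 after treatment and 0.30 after PBS) and *Gstm1* was lower (-0.54 after treatment and -0.24 after PBS). Without the 4 treated libraries with the most reads in no gene 82 genes were in the class, within the sets 27, 349 and 32, and with a covariate for unassigned reads 7.

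The genes that the study used in *Pkd2*-KO mice to read out miR-17 inhibition, a subset of a signature built in cultured cell lines, were set against UNT. How the subset was picked is not given in the sources used here. Of the 10 genes 6 were higher and 3 lower (40.8% and 36.9% of all genes), with medians of 0.29 after treatment and 0.02 after PBS, and none had mice without overlap (36.7% of all genes). With scaling by library size alone 7 were higher and 1 lower (median 0.60), and without the 4 treated libraries with the most reads in no gene 5 were higher and 3 lower (median 0.18). *Polq*, a DNA polymerase, was at 1.62 to 3.26 CPM (median 2.39) in UNT, 3.20 to 8.22 CPM (median 5.20) in RGLS4326-treated and 1.42 to 3.99 CPM (median 3.02) in PBS-treated kidneys and above normal by 1.18. *Clock*, the circadian transcription factor, was higher than UNT by 0.30 and not called with PBS (-0.10, adjusted p = 0.429). *Mink1*, a kinase, met the criterion for the normal level but was still called lower than UNT (-0.20 after treatment and -0.60 after PBS). *Plekha3* was not called (0.09, adjusted p = 0.146), and *Zfp367* remained lower (-0.35 after treatment and -0.99 after PBS, and 0.01 in set 2). By score 3 treated mice were above, 1 below and 7 within the UNT range, and the difference by set was 0.04, 0.28 and 0.01. It was 0.21 in the 4 libraries and 0.03 in the other 7. The study's housekeeping genes were themselves off normal in 4 upward and 2 downward calls of 6: *Gusb* was 2.64-fold and *B2m* 1.86-fold higher, *Rplp0* was higher by 0.50 and *Pak1ip1* lower by a log2 fold change of -0.22.

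Markers of tissues next to the kidney were examined beside these results. Of 10 adipocyte genes 1 was higher and 5 were lower than UNT (40.8% and 36.9% of all genes). The lower calls numbered 3 both with scaling by library size alone and without the 4 treated libraries with the most reads in no gene. The score of all 11 treated mice was within the UNT range (-0.74 to 0.26 against -1.36 to 0.88). By set the score differed from UNT by 0.07, -1.03 and 0.27. In set 2 alone 7 genes were lower and 0 higher, in set 1 it was 1 each way, and in set 3 there were 2 higher and 0 lower. The list summed to 149 to 623 CPM in UNT, 165 to 348 CPM in treated and 304 to 623 CPM in PBS-treated kidneys. *Adipoq*, adiponectin, was at 3.18 to 32.5 CPM (median 17.0) in UNT, 8.83 to 23.0 CPM (median 14.7) in RGLS4326-treated and 17.3 to 48.0 CPM (median 31.1) in PBS-treated kidneys, and *Cfd* and *Retn* were not called after treatment (0.45 and 0.09) but were with PBS (2.03 and 1.64). *Ucp1*, of brown fat, was lower with a log2 fold change of -2.04. In the adrenal list 3 of 11 genes passed the filter on low counts: *Star*, of steroid synthesis, ranged from 1.01 to 16.8 CPM in treated kidneys against 2.34 to 3.93 in UNT and reached 450.3 CPM in PBS, and *Mc2r* was higher by 2.46 with a treated median of 0.865 CPM. The adrenal list summed to 59.7 to 84.9 CPM in UNT, 25.3 to 47.6 CPM in treated and 27.97 to 504.7 CPM in PBS-treated kidneys. Of 4 skeletal muscle genes tested 2 were higher and 2 lower, with *Tnni2* at 2.16 and *Actn3* at -0.55, and the list summed to 2.65 to 3.82 CPM in treated and 2.34 to 3.54 CPM in UNT kidneys. Of 3 erythrocyte genes tested 2 were lower, *Alas2*, of heme synthesis, at -1.57 and *Slc4a1*, which red cells share with intercalated cells, at -2.23, while *Bpgm* was not called (-0.03). The part of these tissues in the differences above was not tested.

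Exons of a number of the genes named here overlap those of another annotated gene, so that their counts are uncertain as long as the strand setting is unknown. These are *Pkhd1*, *Pkd1*, *Col10a1*, *Dnase1*, *Egf*, *Acaa1b*, *Cryab*, *Fn1*, *Col4a1*, *Des*, *Ltbp2*, *Wnt7b*, *Erbb2*, *Cdc20*, *Rfc4*, *Ccne2*, *Slc34a1*, *Slc5a2*, *Pdzk1*, *Avpr2*, *Nphs1*, *Cox6c*, *Ndufs1*, *Cox4i1*, *Glyctk*, *Pfkm*, *Cyp51*, *Cep290*, *Ace*, *Cyp24a1*, *Cenpk*, *Styx*, *4930503L19Rik*, *Rpl13a*, *Rps27a*, *Slc7a10*, *Itga8*, *Rhof*, *Jmjd8*, *Cyhr1*, *Aup1* and *Alas2*.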

How the data were processed

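Whole-kidney mRNA from 34 mice was sequenced by the authors (TruSeq stranded mRNA, NextSeq 500, paired reads). Per the labels and the study's methods, reads were trimmed with TrimGalore, aligned with STAR to GRCm38/mm10 and counted per gene with HTSeq (0.6.1), with FastQC (0.11.2), SAMtools (1.1) and Picard (1.119) also named in the submitters' processing notes. The annotation and the strand setting of the counting are not given in the sources used here. The deposited tables hold raw counts for 23509 genes and 5 summary rows, which were kept out of library sizes and tests. No pair of tables was identical. The tables hold no comparison columns.

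Genes were filtered with filterByExpr (15644 of 20069 with a count), libraries were scaled by TMM, and all 34 entered 1 quasi-likelihood fit of edgeR (4.0.16, limma 3.58.1, R 4.3.3) with the group as the only term. The study also used edgeR, and its test, filter and design are not given in the sources used here. Contrasts were RGLS4326 against UNT, PBS against UNT and RGLS4326 against PBS, with Benjamini-Hochberg adjusted p under 0.05 as the threshold, and 95% intervals were the log2 fold change and its SE with the residual degrees of freedom. A gene past the normal level was called against UNT in both groups, in opposite directions and above 0.5. CPM are given after TMM, and list scores are means of log2(CPM + 1). The labels do not say that the mice of a group came from separate litters, so p-values measure the spread between these samples.

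Named genes were the 12 highest and the 12 lowest by log2 fold change among called genes with at least 5 CPM in the higher group and no overlap between the mice, the 10 genes at the normal level with the largest PBS difference, up to 10 past it and 6 off normal after treatment alone with the smallest p, of each list the members with the largest and the smallest change and up to 3 others, and *Pkd2*, *Pdk2*, *Pkd1*, *Lcn2* and *Havcr1*. The lists and rules were chosen with earlier results of these data known. Genes named outside the rule are said to be so where they appear. Some genes that the rule would name are not reported here. Alternatives were other normalizations, no filter, DESeq2 (1.42.0), a term for library number set, each set alone, the replicate block, read-share and sex covariates, other margins and leaving out 4 libraries. The fit was tested on simulated data. Figures were drawn with matplotlib (3.10.9), with Python 3.11.15, numpy 2.4.6 and pandas 2.3.3. MicroRNA sequences are from RefSeq (GRCm38.p6).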

Additional observations from a re-analysis of the deposited data

How the results depend on the processing

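Counts of called genes stayed within 1.5 times of the reported values under the alternatives tried, including each set of library numbers and DESeq2 (13235 of 18526 genes, 6594 higher), with these exceptions. They were 7316 (4062 higher, 3254 lower) with a covariate for non-unique reads, 3471 lower with scaling by library size alone, and 4332 when an absolute log2 fold change above 1 was required. Genes at the normal level numbered 123 and 84 in sets 1 and 3, 75 and 3 with covariates for unassigned and for non-unique reads, 133 without the 4 RGLS4326 libraries with over 11% of reads in no gene, a setting chosen after seeing the data, and 0 at a margin of 0.25. Genes off normal after treatment alone numbered 27, 349 and 32 in the 3 sets, 7 and 2 with these covariates, 82 without the 4 libraries and 1 at a margin of 0.25. Genes past the normal level numbered 1 with the size factors of DESeq2, without a filter on low counts, with a term for the sets, with the replicate block, with sex as a covariate and with DESeq2, 0 with scaling by library size alone, in set 3 and with either covariate, and 9 in set 2. The causes were not tested.

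Mice with the same replicate number in the RGLS4326-treated and UNT groups had deviations from their group means that correlated between -0.415 and 0.251, above 0.1 in 3 of 11 pairs, so the numbers were not taken as a pairing. A fit with the replicate block called 12162 genes (6379 higher, 5783 lower), with 384 at the normal level, 137 off normal after treatment alone and 1 past it.

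Of 258 named genes, 159 kept their direction and side of the threshold in every alternative, and 36 changed direction in at least 1. With scaling by library size alone, log2 fold changes against UNT changed sign for *Slc25a40* at 0.0633, *Wt1* at 0.021, *Rab11a* at 0.15, *Cux1* at 0.0342, *Tfcp2l1* at 0.28, *Kdr* at 0.21, *Pfkl* at 0.28, *Dhcr7* at 0.27, *Pex14* at 0.0598, *Cep290* at 0.27, *Ift88* at 0.0976, *Lrp6* at 0.22, *Kdm3a* at 0.29, *Txnrd1* at 0.27, *Tfeb* at 0.24, *Mink1* at 0.10, *Bpgm* at 0.27 and *Pak1ip1* at 0.0857. In set 2 they did so for *Slc25a40* at 0.21, *4930503L19Rik* at 0.62, *Cldn16* at -0.0135, *Aqp3* at -0.71, *Plvap* at -0.56, *Cryab* at -0.0683, *Des* at -0.0952, *Pkm* at -0.39, *Cep290* at 0.56, *Ift88* at 0.024, *Kdm3a* at 0.28, *Zfp367* at 0.00991 and *Nid2* at -0.10, in set 1 for *Grm7* at 0.70 and in set 3 for *Slc7a10* at 0.0788. With a covariate for non-unique reads they did so for *Slc25a40* at 0.41, *Cenpk* at 1.56, *Styx* at 1.13, *4930503L19Rik* at 1.59, *Pkd2* at 0.00441, *Wt1* at 0.0528, *Cldn19* at -0.58, *Cldn16* at -0.27, *Aqp3* at -1.21, *Rhcg* at -0.83, *Plvap* at -0.67, *Cryab* at -0.19, *Des* at -0.12, *Rsad2* at 0.0822, *Ift88* at 0.0958, *Nt5e* at 0.99, *Kdm3a* at 0.50, *Zfp367* at 0.39 and *Nid2* at -0.34, and with a covariate for unassigned reads for *4930503L19Rik* at 0.38, *Plvap* at -0.25 and *Pkm* at -0.21. Beside the lists for which the report gives it, the covariate for non-unique reads brought counts of 3 or more calls in a list down by over 1.5 times for proximal tubule transcription factors (from 8 to 5 lower), drug metabolism (16 to 10 lower), adipocyte (5 to 1 lower), cyclic AMP (4 to 2 lower), YAP (13 to 8 higher), growth factor (11 to 6 higher), stress response (6 to 2 higher), glycolysis (5 to 2 higher), cholesterol (4 to 0 higher), endothelial (3 to 0 higher), antioxidant (3 to 1 higher), cilium (7 to 2 higher, 9 to 5 lower), lysosome (10 to 5 higher, 5 to 3 lower), Wnt (3 to 1 lower) and miR-17 readout genes (3 to 0 lower, and 6 to 4 higher).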
